A study of Homo sapiens with 4 samples.

Results

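The WNT ligands, their receptors and inhibitors, and the transducers that carry their signal to beta-catenin were examined in leukaemia cells depleted of the MLL-AF9 fusion transcript. Members were taken by gene name: every WNT, FZD, DVL, DKK and SFRP gene of the array together with CTNNB1, APC, the axins, GSK3A, GSK3B, LRP5, LRP6, the TCF/LEF genes, ROR1, ROR2, RYK, PORCN and NKD1. The array carried 57 such genes, and 42 of them were measured, out of 17938 measured genes with a symbol. A gene was represented by its brightest probe, and a probe was measured when the weight deposited with it was above 0 on all 4 arrays.

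THP1 is a human monocytic leukaemia line with an endogenous MLL-AF9 fusion. It was transfected with siRNAs against the fusion point or with non-targeting siRNAs on days 0, 3 and 6 and harvested on day 8. Cells were kept in 10% serum up to day 6 and in 0.5% serum afterwards. The knockdown group held 1 array with siRNA-A and 1 array with siRNA-B, and the control group held 1 array with control siRNA-1 and 1 array with control siRNA-2. RNA on each array was a pool of 5 experiments, so the 2 arrays of a group show the spread between siRNAs and pools, not between single cultures. All 4 arrays shared 1 slide. The knockdown arrays occupied its positions 1 (siRNA-B) and 2 (siRNA-A) and the controls positions 3 and 4, so an effect of slide position cannot be told apart from one of treatment.

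WNT proteins are secreted ligands that carry a lipid added by the acyltransferase PORCN and bind frizzled receptors together with the co-receptors LRP5 or LRP6. Without a ligand, APC, axin and the GSK3 kinases hold beta-catenin in a destruction complex; with one, dishevelled proteins are engaged, the complex is disabled, and beta-catenin accumulates and binds TCF/LEF factors at target genes, whereas ROR1, ROR2 and RYK serve branches that can act without beta-catenin. In myeloid leukaemia with MLL fusions the pathway is known for its part in the self-renewal of leukaemic stem cells.

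The targeted transcript was read first, through probes of both fusion partners. Log2 intensity of the MLLT3 probe A_23_P216693 was 6.82 with siRNA-A and 6.87 with siRNA-B, against 7.59 with control siRNA-1 and 7.61 with control siRNA-2. The other MLLT3 probe, A_24_P192627, read 6.44 and 6.55 with siRNA-A and siRNA-B, against 7.02 and 7.24 with the controls. On either probe both knockdown values were under both control values, in the direction the labels give. These probes read fused and unfused transcripts alike. Of 4 MLL probes, the one nearest the 5′ end of the transcript read 10.55 and 10.64 after knockdown against 10.95 and 11.08 in the controls. The other 3 MLL probes overlapped between groups, with log2 fold changes of −0.027, 0.048 and −0.085.

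Markers of the cell type were read next. All 10 measured monocytic and myeloid markers were well above the local background, by the scanner software's own flag, on all 4 arrays. CD14, the co-receptor for bacterial lipopolysaccharide on monocytes, had log2 intensities of 8.39 and 8.71 with siRNA-A and siRNA-B and of 7.52 and 7.47 with control siRNA-1 and control siRNA-2, a rise of 1.05 (SE 0.13; limma adjusted p = 0.0355). All p-values come from limma, whose moderated test borrows the spread of all probes; an exact two-sided permutation test of 2 arrays against 2 cannot go below 0.333. ELANE, neutrophil elastase of immature granulocytic and monocytic cells, read 16.41 and 16.33 after knockdown against 16.81 and 16.87 in the controls, a log2 difference of −0.47 with an unadjusted limma p of 0.00233 and an adjusted p of 0.277. MPO, the myeloperoxidase of the same cells, had a log2 fold change of −0.22. By sign 3 of the 10 were higher and 7 lower, and 5 and 5 after each of the other scalings. Both knockdown arrays lay above both controls for 2 of them (20%; all genes 15%) and below for 4 (40%; all genes 21.2%).

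Of other lineages, 4 of 5 measured T cell markers, 4 of 5 B cell markers, 5 of 6 erythroid and megakaryocytic markers and 3 of 5 epithelial and stromal markers were well above background on all arrays, as were 88.3% of all measured genes. None of these markers passed an unadjusted limma p of 0.005. The flag does not give the level. Summed linear intensities with control siRNA-1 were 285.5, 2276, 1908 and 1591 for these lists in the same order. The monocytic and myeloid list summed to 192644, with ELANE its brightest gene. The smallest p among T cell markers were those of CD3G and CD5, with log2 fold changes of 0.23 and −0.21, CD5 being well above background on 1 of the 2 knockdown arrays. Among B cell markers the smallest was that of PAX5, which read 5.91 with siRNA-A and 6.27 with siRNA-B against 6.36 and 6.21, with overlap. The globin HBB was well above background with siRNA-B alone and the epithelial cadherin CDH1 with siRNA-A alone, so no fold is given for either. The next smallest p after that of CDH1 in its list was that of COL1A1, which read 6.25 and 5.78 with siRNA-A and siRNA-B against 6.15 and 6.07, with overlap. The part of the differences in CD14 and ELANE in any value of a WNT gene was not tested.

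Of the 42 measured members, 1 passed an unadjusted limma p of 0.005 and was higher after knockdown, a share of 2.38% where 0.63% of all measured genes were called higher. None was called lower, where 0.702% of all genes were. At an unadjusted p under 0.05, 2 members were higher (4.76%; all genes 3.26%) and 1 was lower (2.38%; all genes 4.74%). After Benjamini-Hochberg adjustment over all 26219 probes, limma called 0 of the 42 at 0.05 and 22 of all genes. Both knockdown arrays lay above both control arrays for 6 members (14.3%; all genes 15%) and below them for 10 (23.8%; all genes 21.2%). The shares without overlap were near those of the array as a whole, each share of calls rests on 1 or 2 members, and nothing particular to the pathway is read from them.

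Fold changes of the members were small. Their median log2 fold change was −0.012, where the median of all genes was −0.021, and 36 of the 42 lay within 0.2 of 0 (85.7%; all genes 79.9%). The fitted values ran up to 0.81, for ROR2; the lowest, that of WNT7A, has a knockdown level that is only a bound. Over the members the median gap was 0.11 between both knockdown arrays and 0.10 between both control arrays, against a median absolute fold change of 0.095. In 11 of 42 members the fold change exceeded the larger of its own within-group gaps. The same count was not made over all genes, so nothing particular to the pathway is read from it. By sign alone 20 members were higher and 22 lower, with 6 of the 42 not well above background on all arrays and their signs less sure, and this order turned with quantile or cyclic loess normalization, where 24 were higher and 18 lower, and with normexp correction and quantile normalization (23 and 19), while the scaled background-subtracted signal gave 21 and 21.

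**Figure D1:**
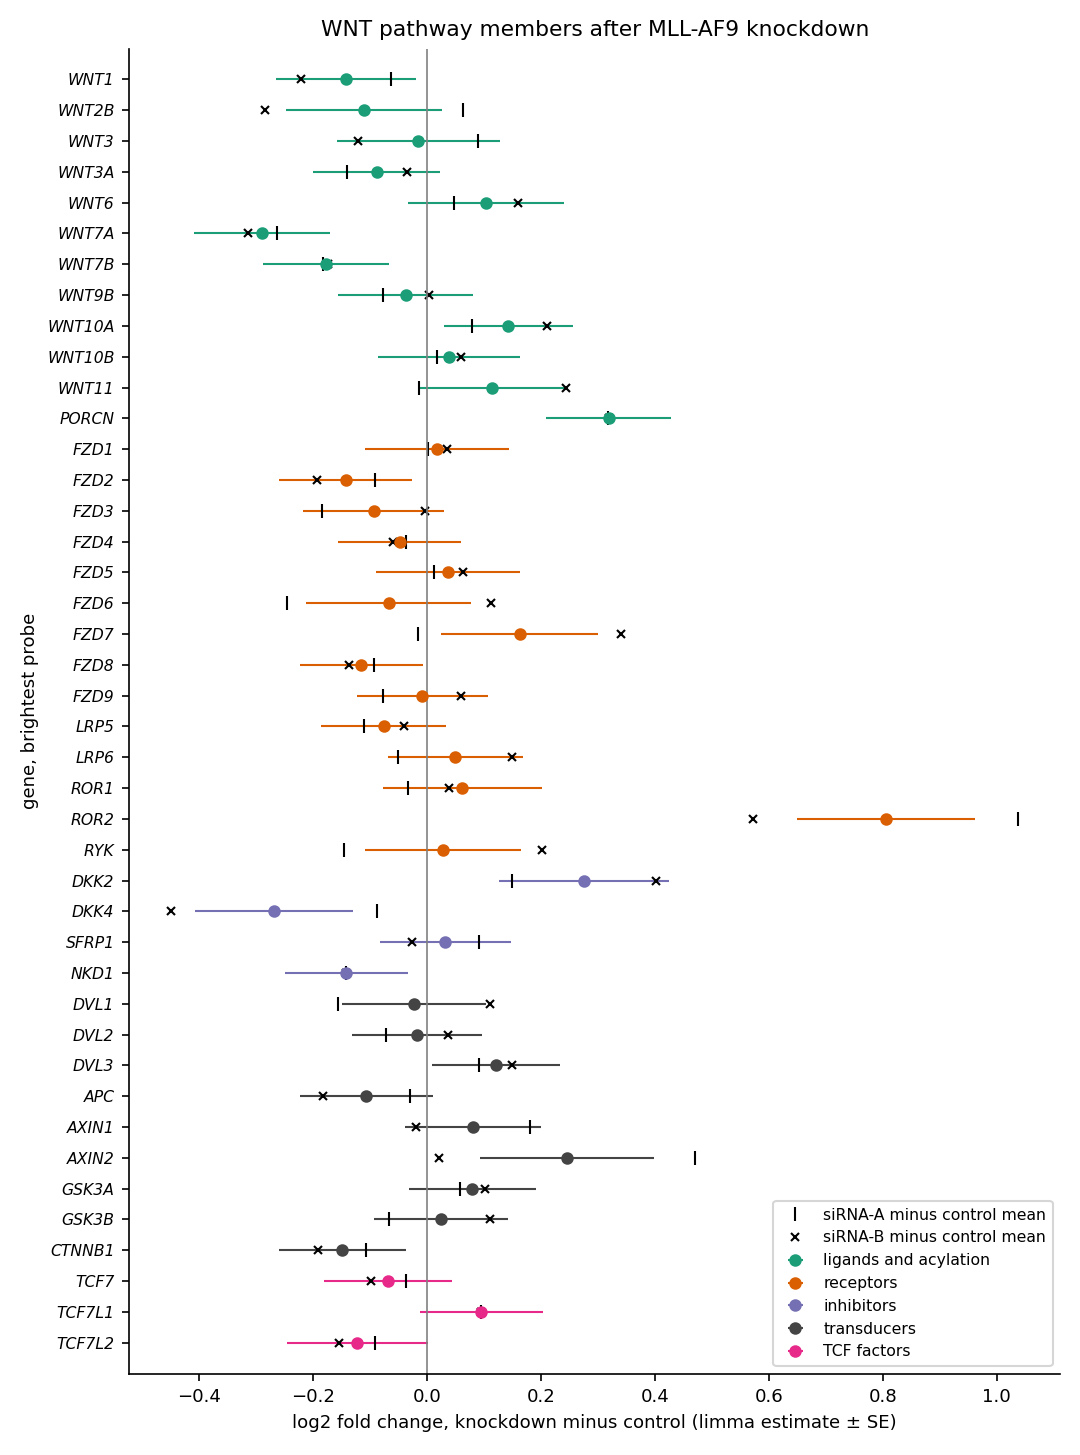
Log2 fold change (knockdown minus control, limma estimate with its SE as bars) of the brightest probe of each of the 42 measured members, ordered by role; vertical ticks and crosses show the siRNA-A and the siRNA-B array minus the control mean. ROR2, at 0.81, lies apart from the others.

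**Figure D2:**
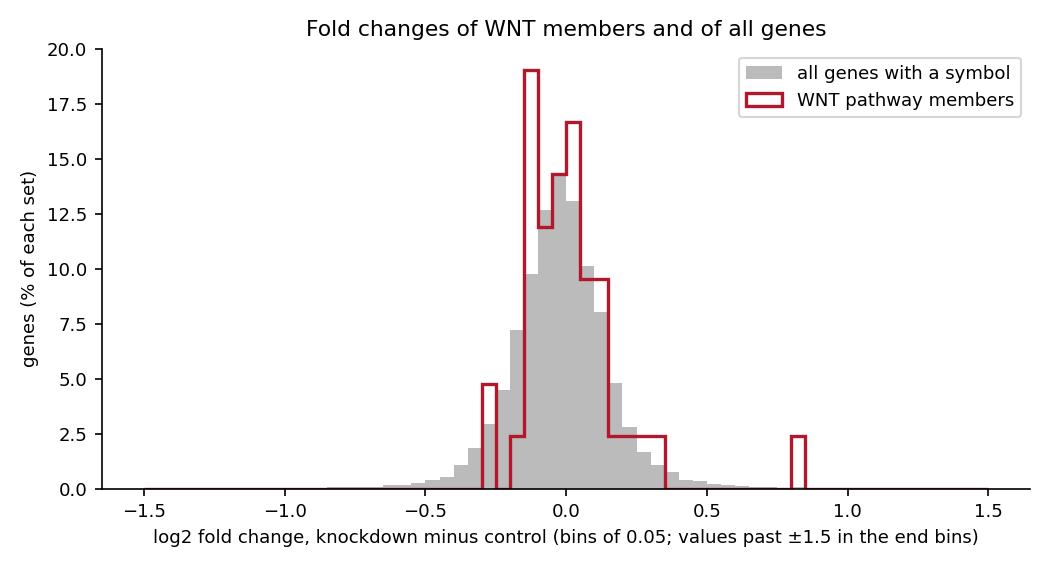
Distribution of log2 fold changes in bins of width 0.05, as a percent of the 42 members (outline) and of the 17938 genes with a symbol (grey). Both distributions centre near 0, with medians of −0.012 and −0.021, and ROR2 stands alone on the right of the outline.

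The 15 members without a measured probe were 8 ligands (WNT2, WNT4, WNT5A, WNT5B, WNT8A, WNT8B, WNT9A and WNT16), the receptor FZD10, the secreted inhibitors DKK1, DKK3, SFRP2, SFRP4 and SFRP5, and the transcription factor LEF1. None of their spots was well above background on any of the 4 arrays. The same held for all 9795 spots of the array with a weight of 0, while each of the 33323 spots that were kept was well above background on at least 1 array. A transcript below this floor may still be present in the cells. The floor was not equal across arrays: the lowest log2 intensity flagged as well above background was 5.32 with siRNA-A and 5.39 with siRNA-B, against 5.04 and 5.13 with control siRNA-1 and control siRNA-2. With siRNA-A 37 of the 42 members were well above background, with siRNA-B 36, and on each control array 41.

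Among the ligands, 11 of 19 were measured and none was called. WNT7A, a ligand best known from limb and nervous system development, was the ligand with the smallest p. Its probe A_23_P258410 lies at chr3:13860851-13860910 of hg19 on the minus strand, and its 60 bases, 55% of them G or C, are shown because the value rests on this single probe.

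WNT7A probe: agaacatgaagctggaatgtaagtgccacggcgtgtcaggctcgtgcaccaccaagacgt

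WNT7A read 5.43 with siRNA-A and 5.38 with siRNA-B, against 5.79 with control siRNA-1 and 5.58 with control siRNA-2, all as log2 intensity. The 2 groups did not overlap, and the probe was well above background on both control arrays and on neither knockdown array, where the floor was higher. The level after knockdown is therefore a bound, and WNT7A was at least 1.21-fold lower after knockdown, taking on each knockdown array the higher of the probe's own value and the lowest value above background. The fitted log2 difference was −0.29 (SE 0.12), with an unadjusted limma p of 0.0398 and an adjusted p of 0.604. It was −0.13 after normexp background correction with quantile normalization, −0.77 on the background-subtracted signal and −0.18 with control siRNA-1 left out.

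WNT6, WNT3 and WNT3A were the ligands with the brightest probes. WNT6 read 10.67 and 10.78 with siRNA-A and siRNA-B, and 10.45 and 10.78 with control siRNA-1 and control siRNA-2. For WNT3, a ligand of the beta-catenin branch, the values in the same order were 9.68, 9.47, 9.43 and 9.76. WNT3A, the ligand most used to switch on that branch in culture, read 7.37, 7.47, 7.54 and 7.48. The groups of WNT6 and WNT3 overlapped, since control siRNA-1 was the lowest array and control siRNA-2 the highest. The gap between both controls was 0.33 for either gene, wider than its fold change of 0.10 or −0.015. The knockdown arrays of WNT3A lay just below its controls, with a log2 fold change of −0.089 (SE 0.11) that turned to 0.0062 on the scaled background-subtracted signal.

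WNT7B was chosen for description after its values were seen, as the only ligand read by 3 probes. Its brightest probe read 7.33 and 7.34 after knockdown with siRNA-A and siRNA-B, and 7.46 and 7.56 in the controls. The probe A_24_P911607 read 6.17 and 6.32 against 6.51 and 6.38, and the probe A_33_P3248903 read 6.15 and 6.25 against 6.42 and 6.36. Both knockdown arrays lay below both controls on each probe, and the log2 fold changes were −0.18, −0.20 and −0.19 with an SE of 0.11 to 0.12. None reached an unadjusted limma p of 0.05, the smallest being 0.125. The 3 probes were read from the same 4 RNA pools and are not replicates.

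WNT1, also chosen after its values were seen, was read by 2 probes, and on each of them 1 group was not well above background. On its brightest probe, A_23_P411157, log2 intensity was 5.58 and 5.43 with siRNA-A and siRNA-B and 5.55 and 5.74 with control siRNA-1 and control siRNA-2, and the groups overlapped. On the probe A_33_P3382588 it was 5.64 and 5.46 against 5.13 and 5.21, and both knockdown arrays lay above both controls. The brightest probe was above background on the control arrays alone (limma adjusted p = 0.829), and the other on the siRNA-A array alone (limma adjusted p = 0.464), and no fold is given for it. The unadjusted limma p were 0.277 and 0.0107. The probes start 1097 bases apart both on the genome and along the transcript, and thus without an intron between their starts. The latter probe covers chr12:49375181-49375240 of hg19 on the plus strand and is 60% G or C.

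WNT1 probe: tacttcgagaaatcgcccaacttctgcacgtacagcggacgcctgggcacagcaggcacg

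No direction is given for WNT1. The remaining 5 ligands, WNT2B, WNT9B, WNT10A, WNT10B and WNT11, had log2 fold changes between −0.11 and 0.14. WNT9B was above background on the control arrays alone, with overlapping groups. WNT10A, printed on 10 spots, was higher on both knockdown arrays than on both controls, with an unadjusted limma p of 0.240. Its fold change was above 0 on 8 of the 10 spots, which share the same RNA and are not replicates. The share of these spots well above background was 0.5 on either knockdown array, against 0.8 and 0.9 on the controls.

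PORCN, the enzyme of the endoplasmic reticulum on which the secretion of WNT ligands depends, was the second member by p. Its probe lies at chrX:48379104-48379163 of hg19. PORCN read 9.19 with siRNA-A and 9.19 with siRNA-B, against 8.82 with control siRNA-1 and 8.92 with control siRNA-2. Both knockdown arrays lay above both controls and within 0.01 of each other. The log2 fold change was 0.32 (SE 0.11), or 1.25-fold, with an unadjusted limma p of 0.0185 and an adjusted p of 0.520. PORCN stayed between 0.27 and 0.37 under all 11 other settings and passed the unadjusted p of 0.005 under 1 of them, normexp correction with quantile normalization, at a limma adjusted p of 0.337. Over the 11 settings the adjusted p of PORCN ran from 0.337 to 1.

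Frizzled receptors bind WNT ligands through a cysteine-rich domain outside the cell, and 9 of 10 were measured, all well above background on all arrays. None was called. FZD2 read 10.03 and 9.93 with siRNA-A and siRNA-B, and 10.05 and 10.21 with control siRNA-1 and control siRNA-2, so the groups did not overlap, with a log2 fold change of −0.14 (SE 0.12). FZD1 read 9.43, 9.47, 9.30 and 9.57 in the same order, with both knockdown arrays between the controls. FZD6, which also serves planar cell polarity, read 9.04, 9.40, 9.20 and 9.38, and its lowest and its highest array were both knockdown arrays.

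Across the family the fold changes ran from −0.14 to 0.16. The upper end was FZD7, at 7.52 with siRNA-B and 7.16 to 7.18 on the other 3 arrays. FZD4 and FZD8 joined FZD2 in having both knockdown arrays below both controls, with log2 fold changes of −0.048 and −0.12, which made 3 of 9 (33.3%; all genes 21.2%). By sign 3 frizzled genes were higher (33.3%; all genes 43.8%) and 6 lower, and 4 and 5 after each of the other scalings.

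Of the LRP co-receptors, LRP5 read 9.00 and 9.07 after knockdown and 9.09 and 9.13 in the controls, with no overlap and a log2 fold change of −0.076 (SE 0.11). LRP6 read 10.53 and 10.73 after knockdown and 10.55 and 10.61 in the controls, with overlap. Both differences were smaller than their SE.

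ROR2, a receptor tyrosine kinase-like protein that binds WNT5A and acts mainly outside the beta-catenin branch, was the only member called at an unadjusted p under 0.005. Its brightest probe, A_23_P158318 at chr9:94485467-94485526 of hg19 on the minus strand, read 6.61 with siRNA-A and 6.15 with siRNA-B, against 5.54 with control siRNA-1 and 5.61 with control siRNA-2. All 4 values were well above background. Both knockdown arrays were high and both controls low, with no overlap, and siRNA-A was higher than siRNA-B by 0.46. Knockdown averaged 6.38 ± 0.33 (SD of 2 arrays) and control 5.58 ± 0.053.

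The log2 fold change of ROR2 was 0.81 (SE 0.16), a 1.75-fold rise at an unadjusted limma p of 0.000693, and the adjusted p over all probes was 0.182. Higher values were found in 2 of 2 knockdown arrays. The intensities were not background corrected. On the background-subtracted signal the log2 fold change was 1.38 with an unadjusted limma p of 0.0171, and after normexp background correction with quantile normalization it was 0.46 with one of 0.0128.

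The other ROR2 probe, A_24_P101704, did not show the difference. It read 5.43 with siRNA-A, 5.49 with siRNA-B, 5.55 with control siRNA-1 and 5.21 with control siRNA-2, with both knockdown arrays between the controls, and it was well above background on control siRNA-1 alone. No fold is given because the knockdown level is a bound (limma adjusted p = 0.931). The starts of the 2 probes are 1265 bases apart both on the genome and along the transcript, so no intron separates them, and the probe without a difference begins at base 2183 of the transcript and the other at base 3448. The former covers chr9:94486732-94486791 of hg19. It was taken as coding from its place in the transcript, which was not checked against an annotation, and is shown because the gene-level reading of ROR2 depends on which probe is taken.

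ROR2 probe: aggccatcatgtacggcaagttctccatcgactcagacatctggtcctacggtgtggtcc

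Averaged over both probes, the dim one included, the log2 fold change of ROR2 was 0.44, with an unadjusted limma p of 0.00477 and an adjusted p of 0.345. The call at 0.005 was lost when siRNA-A was left out, at 0.57, and when either control was, at 0.77 with control siRNA-1 left out and 0.84 with control siRNA-2. It was lost as well after normexp correction with quantile normalization and on the background-subtracted signal. The limma adjusted p of ROR2 ran from 0.0938 to 1 over the 11 settings. Why the probes differ was not tested.

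**Figure D3:**
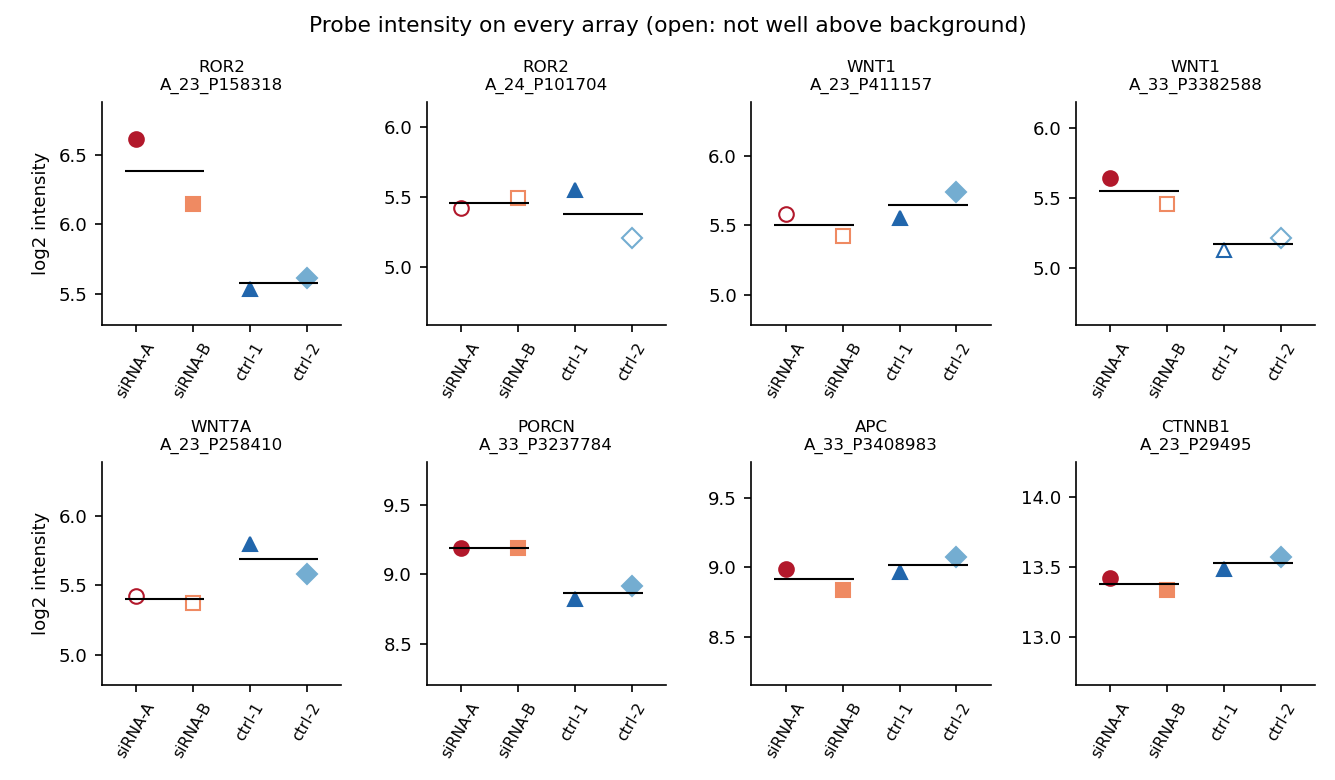
Log2 intensity of 8 probes of ROR2, WNT1, WNT7A, PORCN, APC and CTNNB1 on each of the 4 arrays, with lines at the group means and open symbols for values not well above background; all panels span the same range. ROR2 is high on both knockdown arrays on the probe A_23_P158318 and not on A_24_P101704. On each WNT1 probe 1 group was not well above background, so their directions are not compared.

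ROR1, the closest relative of ROR2, read 5.19 and 5.26 with siRNA-A and siRNA-B and 5.40 and 5.04 with the controls. It was well above background on control siRNA-1 alone, and no fold is given. RYK, a WNT receptor with an inactive kinase domain, read 11.62 and 11.97 after knockdown and 11.74 and 11.79 in the controls. The siRNA-A array was the lowest and the siRNA-B array the highest of the 4, and the log2 fold change of RYK was 0.028 (SE 0.14).

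To place the higher members in sequence, the 250 bases before the gene start were taken from RefSeq (GRCh38.p14) for the 29 of 42 members that the table holds. The letters CTTTGAT, a core of the sequence that TCF/LEF factors bind, were searched on both strands. They were found before 0 of the 29 members and before 622 of all 27305 genes (2.28%). This says only that these letters are not in these windows. The windows of the members were rich in G and C, with a median of 72.4% against 58% over all genes. The windows of ROR2 (chr9:91950229-91950478, minus strand) and PORCN (chrX:48508742-48508991, plus strand) are shown as those of the members highest after knockdown; without a match, no base is in capitals.

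ROR2 promoter: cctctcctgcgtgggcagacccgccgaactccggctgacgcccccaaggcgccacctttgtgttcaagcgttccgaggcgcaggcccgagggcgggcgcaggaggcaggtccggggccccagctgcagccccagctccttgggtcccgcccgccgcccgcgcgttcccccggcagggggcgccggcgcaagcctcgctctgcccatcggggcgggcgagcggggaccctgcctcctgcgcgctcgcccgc
PORCN promoter: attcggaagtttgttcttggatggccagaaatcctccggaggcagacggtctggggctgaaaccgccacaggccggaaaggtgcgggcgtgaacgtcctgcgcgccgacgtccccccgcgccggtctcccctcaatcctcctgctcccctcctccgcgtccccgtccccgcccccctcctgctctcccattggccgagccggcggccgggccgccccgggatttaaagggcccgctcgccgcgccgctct

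The inhibitors of the pathway were mostly unmeasured, with 3 of 8 secreted inhibitors read. DKK2 read 5.91 and 6.16 with siRNA-A and siRNA-B and 5.58 and 5.93 with control siRNA-1 and control siRNA-2. DKK4, which like other Dickkopf proteins blocks the LRP co-receptors, read 5.57 and 5.21 against 5.64 and 5.67. The groups of DKK2 overlapped, and those of DKK4 did not, its siRNA-B array being the lowest and not well above background. Neither gene was called, with log2 fold changes of 0.28 (SE 0.15) and −0.27 (SE 0.14) and unadjusted limma p of 0.0991 and 0.0857. With siRNA-B left out DKK4 was at −0.088, and the difference thus rests mostly on the array where it was not well above background. DKK2 ran from 0.10 to 0.45 as each array was left out. SFRP1, a soluble decoy with a frizzled-like domain, read 6.27 and 6.16 against 6.25 and 6.12, with overlap. NKD1, which binds dishevelled and restrains it within the cell, read 6.32 on both knockdown arrays and 6.44 and 6.48 on the controls, without overlap and with a log2 fold change of −0.14 (SE 0.11).

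Dishevelled proteins relay the signal from the receptors to the destruction complex, and all 3 were measured. DVL1 read 13.01 and 13.28 with siRNA-A and siRNA-B and 13.19 and 13.14 with the controls. DVL2 read 9.89 and 10.00 against 9.91 and 10.03, and DVL3 read 10.34 and 10.40 against 10.31 and 10.20. DVL1 and DVL2 overlapped between groups, and DVL3 was higher on both knockdown arrays by 0.12 (SE 0.11). The second DVL1 probe, A_23_P347432, read 8.78 and 8.77 against 8.96 and 8.94, without overlap and with a log2 fold change of −0.17. None was called, and the signs of DVL1 and DVL2 turned from below to above 0 under quantile normalization, cyclic loess normalization, and normexp correction with quantile normalization.

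The destruction complex was measured in full, and none of its 5 genes was called. APC, the scaffold lost in most colorectal cancers, read 8.99 and 8.84 with siRNA-A and siRNA-B against 8.97 and 9.07. AXIN1, the limiting scaffold of the complex, read 9.03 and 8.83 against 8.82 and 8.88. Both genes overlapped between groups. GSK3A read 12.92 and 12.96 against 12.80 and 12.92, and GSK3B, the other kinase that marks beta-catenin for degradation, read 11.15 and 11.33 against 11.18 and 11.26. GSK3A did not overlap, by a margin under 0.01, and GSK3B did.

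AXIN2, a scaffold that is itself a widely used target gene of beta-catenin, read 6.15 with siRNA-A, 5.70 with siRNA-B, 5.70 with control siRNA-1 and 5.66 with control siRNA-2. The siRNA-A array alone stood high. Its log2 fold change was 0.25 (SE 0.15; limma adjusted p = 0.754), and without siRNA-A it was 0.021. The other AXIN2 probe, A_23_P148015, read 5.64 with siRNA-A, 5.70 with siRNA-B and 5.64 on both controls, so that the high value was not seen on it. The second APC probe, printed on 10 spots, had a log2 fold change of 0.022.

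Beta-catenin itself, CTNNB1, read 13.42 with siRNA-A and 13.34 with siRNA-B, against 13.49 with control siRNA-1 and 13.57 with control siRNA-2. Both knockdown arrays lay below both controls, and the nearest arrays of the 2 groups were closer together than the arrays within either group. The log2 fold change was −0.15 (SE 0.11; limma adjusted p = 0.805), and CTNNB1 was not called. All 10 spots of the probe had a fold change below 0, from −0.26 to −0.029, and the spots share the same RNA. The second probe, A_33_P3421695, read 10.26 and 10.28 against 10.39 and 10.48, likewise without overlap, with a log2 fold change of −0.17 (SE 0.11). The array measures the transcript, and the amount or location of beta-catenin protein, through which the pathway acts, was not measured.

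Of the TCF/LEF factors, which bring beta-catenin to DNA, LEF1 was not measured and none of the other 3 was called. TCF7 read 6.83 and 6.77 with siRNA-A and siRNA-B against 6.81 and 6.92. TCF7L2 read 5.55 and 5.49 against 5.52 and 5.77. Both overlapped between groups, with log2 fold changes of −0.068 (SE 0.11) and −0.12 (SE 0.12). The second TCF7L2 probe was not well above background with siRNA-A. Its fitted value was 0.086 (SE 0.12), and the signs of the TCF7L2 probes are not compared. TCF7L1, which acts mainly as a repressor, read 5.43 on both knockdown arrays against 5.30 and 5.36, and was well above background on control siRNA-2 alone, so no fold is given.

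In all, 9 members had more than 1 probe, which made 10 pairs of a brightest and another probe. In the pairs of ROR2 and WNT1 a probe was not well above background on any array of a group, so the signs of the pairs are not counted.

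**Figure D4:**
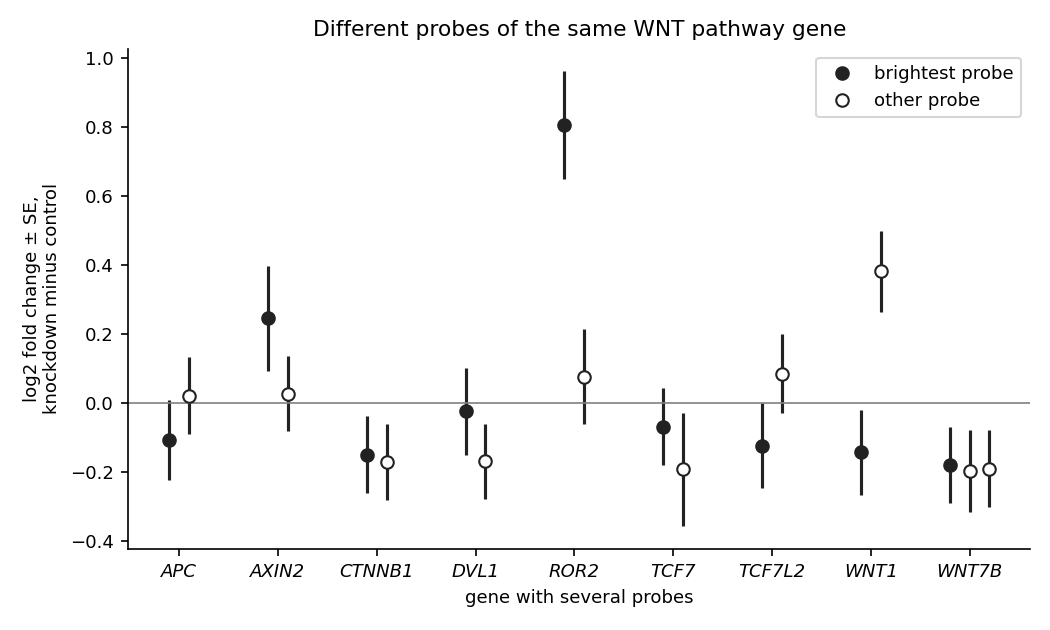
Log2 fold change (knockdown minus control) with its SE for each probe of the 9 members read by several probes; filled circles are the brightest probe and open circles the others. CTNNB1 and WNT7B give like values on their probes. The probes of ROR2 and of WNT1 are not compared. The open probe of ROR2 and the filled probe of WNT1 were not well above background after knockdown. The open probe of WNT1 was not well above background in the controls.

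Other genes of the pathway were counted in lists. Of 17 measured regulators of WNT signals at the cell surface or near dishevelled, 4 were higher and 13 lower by sign (23.5% higher; all genes 43.8%) and none was called. Of the 17, 11 were well above background on all arrays, and some of the signs thus rest on probes not above it. After the other scalings 4 or 5 of them were higher, and 43.7% to 51% of all genes. ZNRF3, a ubiquitin ligase that removes frizzled receptors from the surface, read 10.57 and 10.68 after knockdown against 10.20 and 10.40, a log2 fold change of 0.32 (limma adjusted p = 0.560). DIXDC1, a positive regulator with a domain shared with dishevelled and axin, read 7.58 with siRNA-A and 8.04 with siRNA-B against 8.20 and 8.01, with overlap, so that its log2 fold change of −0.30 (SE 0.16) rests mostly on siRNA-A.

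Of 23 measured partners of the destruction complex, 9 were higher and 14 lower by sign (39.1% higher; 8 to 10 genes after the other scalings) and none was called. APC2, the neuronal relative of APC, read 6.91 with siRNA-A and 7.41 with siRNA-B against 7.69 and 7.77, with no overlap, a log2 fold change of −0.56 (SE 0.16), an unadjusted limma p of 0.00760 and an adjusted p of 0.424. Against the control mean APC2 was at −0.81 with siRNA-A and −0.31 with siRNA-B. FRAT1, which binds GSK3 and keeps it from axin, read 8.95 and 9.17 against 8.68 and 8.83, with a log2 fold change of 0.30 (SE 0.12).

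None of 23 measured nuclear cofactors of beta-catenin was called or reached an unadjusted limma p of 0.05. By sign 13 were higher and 10 lower (56.5% higher; 15 to 17 genes higher after the other scalings), and their log2 fold changes lay between −0.18 and 0.19. TLE4, a corepressor of TCF factors, and PYGO1, a coactivator, had the smallest p. TLE4 had a log2 fold change of 0.19. PYGO1 was not well above background on either knockdown array. On the deposited intensities alone it was at least 1.09-fold lower after knockdown (limma adjusted p = 0.775). Of 27 genes of the planar polarity and calcium branches, 10 were higher and 17 lower by sign and none was called. The 37% higher compare with 43.8% of all genes, and 13 to 16 of the 27 were higher after the other scalings. PRKCA, a protein kinase C of the calcium branch, read 12.36 and 12.77 against 12.24 and 12.00, a log2 fold change of 0.45 (SE 0.16; limma adjusted p = 0.524; 0.24 with siRNA-A and 0.65 with siRNA-B), and INVS, which switches signals toward the polarity branch, had one of −0.20.

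Among 18 measured TCF/LEF target genes, the readout of beta-catenin in the nucleus, 10 were higher and 8 lower by sign (55.6% higher; 8 to 11 genes after the other scalings; 14 of the 18 well above background on all arrays) and none was called. TWIST1, a transcription factor of mesenchymal cells, read 7.46 and 7.61 after knockdown against 7.74 and 7.89, a log2 fold change of −0.28 (limma adjusted p = 0.614), and the growth factor VEGFA read 8.38 with siRNA-A and 8.78 with siRNA-B against 8.37 and 8.30, so that its log2 fold change of 0.25 (SE 0.15) rests mostly on siRNA-B. The list's median log2 fold change was 0.0088. Of 10 measured partners of beta-catenin at cell junctions, 4 were higher and 6 lower by sign (40% higher; 4 or 5 genes after the other scalings; 7 of the 10 well above background on all arrays) and none was called. JUP, plakoglobin, the closest relative of beta-catenin, read 8.61 and 8.92 against 9.12 and 9.06, with no overlap and a log2 fold change of −0.32 (SE 0.13; limma adjusted p = 0.597; −0.48 with siRNA-A and −0.17 with siRNA-B). CDH1, the cadherin named above, was the other gene of that list with an unadjusted p under 0.05.

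**Figure D5:**
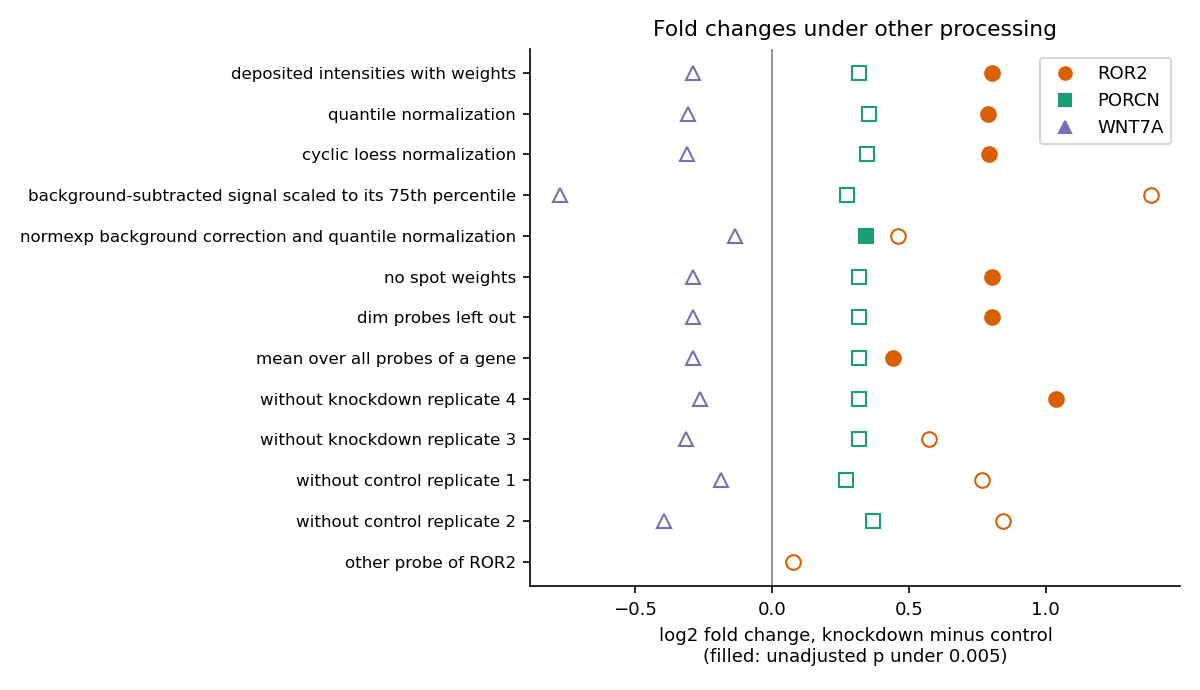
Log2 fold change (knockdown minus control) of ROR2, PORCN and WNT7A with the deposited intensities and under each other setting, with filled symbols for an unadjusted limma p under 0.005. Replicate 3 is siRNA-A and replicate 4 siRNA-B; ROR2 runs from 0.44 to 1.38 on its own brightest probe or the mean of both, and its other probe, not well above background after knockdown, lies near 0.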

How the data were processed

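The authors hybridised 1-colour Agilent arrays, extracted spots with Agilent Feature Extraction 10.5.1.1 and deposited, for each of 44495 spots, an intensity (without background correction or normalization) and a quality weight whose derivation is not given in the sources used here. The deposited intensity equalled the scanner's median pixel signal in 100% of spots. Control spots (1377) and spots of weight 0 were left out, identical spots averaged, and log2 intensities entered limma (version 3.58.1, R 4.3.3; weights used, no covariates) over 26219 probes. Tests were two-sided, and Benjamini-Hochberg adjustment ran over all probes. A call was an unadjusted p under 0.005; the further condition of the methods, a t-test over the repeated spots of a probe, was not applied. A probe printed on several spots counted as well above background where at least 50% of its spots were. Array names of genes were kept. Genes with values on every array were members with an unadjusted p under 0.05, the core components, and the 3 brightest of each of the WNT, FZD, DKK and SFRP families; of the other lists, those called and 1 or 2 with the smallest p. Members and lists were chosen with earlier results of these data known. The procedure was tested on simulated data. Alternatives were other normalizations and background corrections, no weights, no dim probes, the mean of a gene's probes, and leaving out each array.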

Additional observations from a re-analysis of the deposited data

How the results depend on the processing

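Over 11 alternative settings ROR2, PORCN and WNT7A kept their signs; 1 more, the other ROR2 probe, was added for ROR2 after seeing the data. On the background-subtracted signal scaled to its 75th percentile, 0 members passed an unadjusted limma p of 0.005 and 5 passed 0.05 (ROR2, WNT7A, NKD1, PORCN and WNT7B), and ROR2, at 1.38, was not called. With normexp correction and quantile normalization ROR2 was 0.46 and not called, and the 1 call was PORCN. The other ROR2 probe, not well above background on either knockdown array, was not called; its fitted difference of 0.077 is no measured change. Leaving out each array in turn gave 0 to 1 calls at 0.005, 1 to 5 at 0.05, 26 to 31 members without overlap, a median log2 fold change between −0.075 and 0.038, and 0.57 to 1.04 for ROR2; with 1 array left in a group, non-overlap is easier to reach, and the lone array is assumed to vary like the others. The cause was otherwise not tested. The remaining settings gave counts of 1 and 3. Over all settings 21 of 42 members kept their sign, and 0 had a limma adjusted p under 0.05. Signal over background limits the dim members: 36 of 42 were well above background on all arrays. The labels pair no knockdown array with a control array, and each array held a pool of 5 experiments, so no paired analysis was made.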
